A study of Homo sapiens with 9 samples.

Results

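The genes described here carry out glucose uptake and glycolysis: the glucose transporters SLC2A1 and SLC2A3, the hexokinases HK1 and HK2, the phosphofructokinase PFKP, its regulators PFKFB3 and PFKFB4, the enolases ENO1 and ENO2, and the lactate dehydrogenase subunit LDHA. They were chosen by name, as every probe that was not a control and whose annotated gene name was 1 of these 10, out of 36618 gene names on the array. The 10 genes were picked with earlier results of these data known. Together they had 16 probes, of which 14 passed the filter on dim probes. All 10 genes were tested, and the probe that represented each gene was well above background on all 9 arrays.

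Cells take up glucose through facilitative transporters and trap it by phosphorylation with hexokinase. Phosphofructokinase then makes the committed step of glycolysis, enolase forms phosphoenolpyruvate near its end, and lactate dehydrogenase turns the resulting pyruvate into lactate while regenerating NAD. Growth factor signaling, hypoxia and the transcription factor MYC are known to raise the transcripts of several of these genes in cultured cells, and many transformed lines ferment glucose to lactate even in oxygen.

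Gene expression was measured in HEK293, a human embryonic kidney cell line, stably expressing HA-tagged MEK1, the kinase that phosphorylates ERK. The 3 cell lines expressed MEK1 as WT, as F53S, a substitution known from the developmental disorders called RASopathies, or as K57N, a substitution known from cancers. Each line was represented by 1 stable derivation and by 3 arrays from independent experiments, so a difference between lines cannot be told apart from any other difference between these derivations. The source names of WT replicates 2 and 3 read HEK294 and HEK295; these were taken as a fill error, since the cell line given for every array was HEK293. The number of arrays limits the precision of every value below. Among markers of HEK293 cells, VIM, KRT8, KRT18, NEFL, PAX2 and LHX1 were well above background on all arrays, and NEFM was so on 6. Among markers of other cell types, 1 of 5 for fibroblasts (COL1A1), PTPRC for blood, 2 of 3 for endothelium (CDH5 and VWF), 1 of 3 for liver (APOA1) and 2 of 3 for muscle (CKM and DES) were also above background on all arrays, whereas COL1A2, DCN, HBB, ALB, TTR and MYH2 were so on none.

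Readouts of ERK output followed the labels. The ERK phosphatase DUSP6 had log2 signals of -3.33, -1.70 and -2.01 in WT cells, 0.51, 0.49 and 0.65 in F53S cells, and 4.06, 4.01 and 3.86 in K57N cells. Of 11 genes listed for this check (10 ERK readouts and MAP2K1, the gene of MEK1), limma called 10 as higher in K57N cells, relative to WT, at an adjusted p below 0.05. In F53S against WT cells 0 were called by limma and 0 by the methods' t-test after adjustment, with 10 at an unadjusted p below 0.05 by either. MAP2K1 itself was at 2.36, 2.34 and 2.42 in WT, 2.50, 2.39 and 2.46 in F53S, and 2.92, 2.81 and 2.82 in K57N cells. It was called as higher in K57N than in WT cells in 4 of 21 settings. Its probe may read both the endogenous gene and the transgene. PHLDA1, 1 of the 10 readouts, was identified by the paper from gene profiling of these same lines, so it is not an independent check.

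Every signal is given as the log2 of the scanner's processed intensity relative to the 75th percentile of its own array, so 0 is that percentile. Replicate 1 of each line had been hybridized on slide 1 and replicates 2 and 3 on slide 2. The 75th percentile was at intensities of 245 to 376.25 on slide 1 and 695 to 821 on slide 2. Across probes, replicates of a line differed with an SD (log2) of 0.302 to 0.327 within slide 2 but 0.613 to 0.901 across slides. Because each slide held all 3 lines, the lines could be compared within each slide, and results are given both for a fit of cell line alone and for a fit that also held slide.

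In K57N cells, SLC2A3, HK2 and PFKFB3 stood above both other lines on every array. Of all genes, 10.2% were above WT cells on every K57N array and 8.27% above F53S cells. Relative to WT cells the mean signal of SLC2A3 was 2.30-fold, that of HK2 1.97-fold and that of PFKFB3 1.58-fold. With cell line alone limma called 0 of the 10 genes, beside 2.75% of the 19209 genes tested, and with slide in the fit it called these 3, beside 19.4%. None of these 3 calls was made without WT replicate 1, and with replicate number as the block only PFKFB3 was called. Without K57N replicate 1, the log2 differences of SLC2A3, HK2 and PFKFB3 fell from 1.20, 0.98 and 0.66 to 0.73, 0.60 and 0.45. A second, dim PFKFB3 probe differed between K57N and WT cells by 0.01 on slide 2. PFKFB4 was the single member with a lower mean in K57N than in WT cells. No member passed the test in F53S against WT cells, where the largest difference was that of SLC2A3, whose mean was 1.37-fold that of WT cells with all arrays and whose log2 difference of 0.46 was 0.12 without WT replicate 1 in the fit with slide.

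**Figure D1:**
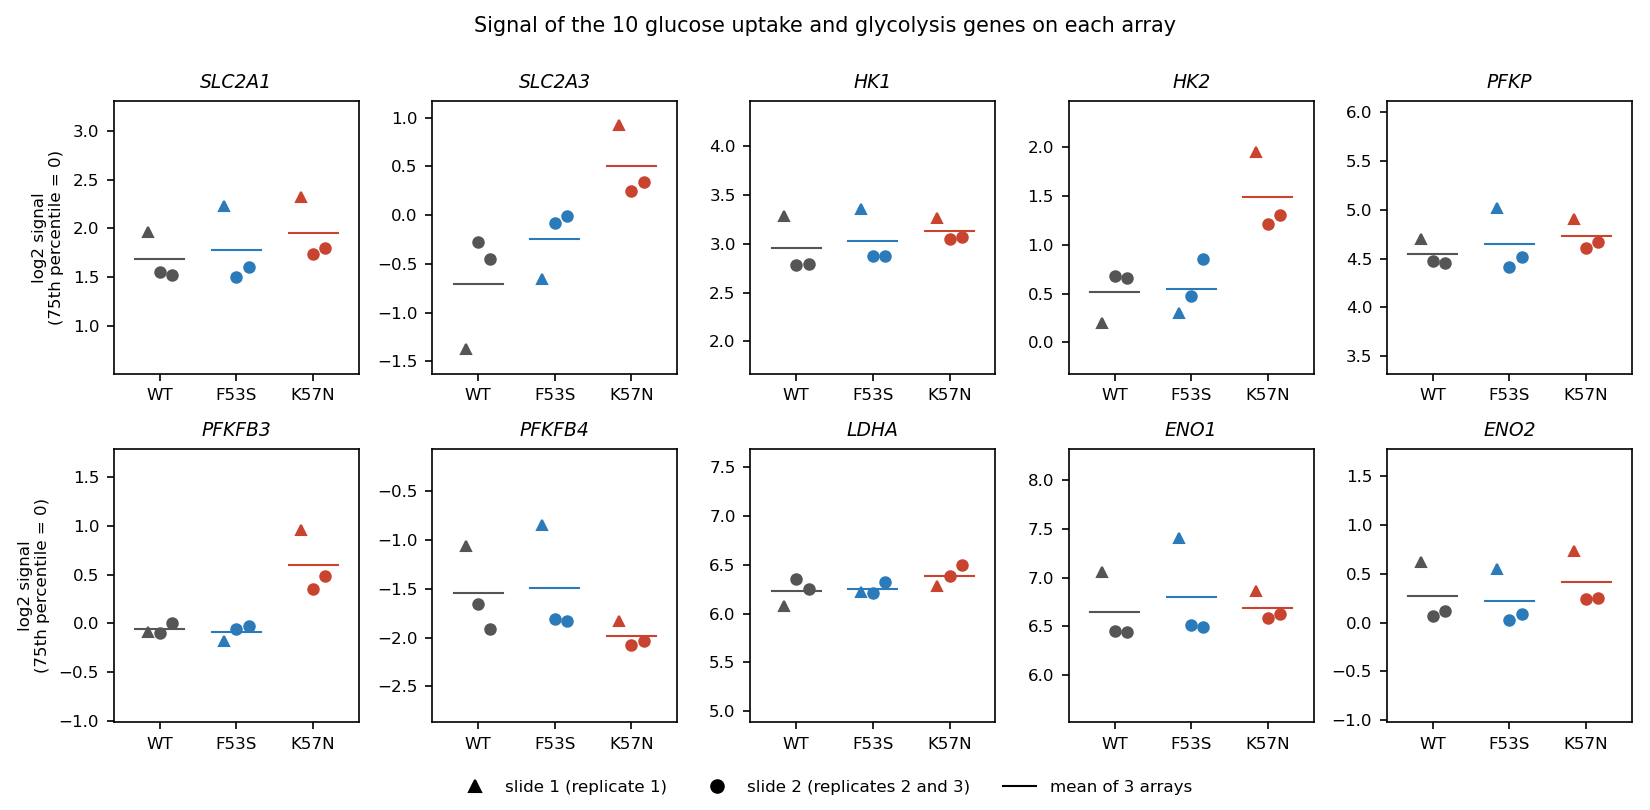
Log2 signal of the 10 genes on each of the 9 arrays, by cell line, relative to the 75th percentile of each array. Triangles are replicate 1 on slide 1, circles replicates 2 and 3 on slide 2, and lines the mean of 3 arrays; the K57N points of SLC2A3, HK2 and PFKFB3 lie above every point of the other lines.

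The transporter SLC2A3 (GLUT3) has a high affinity for glucose and is best known from neurons. Its probe lies at chr12:8072924-8072983 on hg19, minus strand. The log2 signal was -1.37, -0.28 and -0.46 on WT arrays 1, 2 and 3, -0.65, -0.08 and -0.01 on the F53S arrays, and 0.92, 0.25 and 0.34 on the K57N arrays. The K57N arrays did not overlap those of the other lines, and WT replicate 1 was the lowest of all 9 arrays while K57N replicate 1 was the highest. Means were -0.70 ± 0.59, -0.25 ± 0.35 and 0.50 ± 0.36 (SD, n = 3) in WT, F53S and K57N cells. A dimmer probe, whose accessions name both SLC2A3 and its near-identical neighbor SLC2A14, did not clear background on WT replicate 1. On slide 2, where all its arrays did, the K57N minus WT difference was 0.78 (SE 0.26, limma adjusted p = 0.0947 on slide 2 alone).

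The transporter SLC2A1 (GLUT1) supplies basal glucose uptake in most cultured cells. At its probe (chr1:43391874-43391933, minus strand) the log2 signal was 1.96, 1.56 and 1.52 in WT, 2.23, 1.497 and 1.61 in F53S, and 2.32, 1.74 and 1.80 in K57N cells. The lines overlapped over all arrays, but within each slide K57N arrays were above WT arrays. The K57N minus WT difference was 0.27 (SE 0.26, adjusted p = 0.830, or SE 0.09 and adjusted p = 0.0768 with slide in the fit, range over settings 0.0768 to 1), and did not pass either test. Over these settings the difference ranged from 0.09 to 0.41. With slide in the fit, leaving out 1 array gave limma adjusted p-values no lower than 0.0567, whereas quantile scaling added a call for SLC2A1. The other SLC2A1 probe did not clear background anywhere.

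HK2 is the inducible hexokinase that binds to mitochondria and is abundant in many tumor lines. Its signal at chr2:75120331-75120390 (plus strand) was 0.20, 0.68 and 0.66 in WT, 0.30, 0.48 and 0.86 in F53S, and 1.96, 1.21 and 1.30 in K57N cells. All K57N arrays lay above the highest F53S array, and WT and F53S arrays overlapped. Means were 0.51 ± 0.27, 0.54 ± 0.28 and 1.49 ± 0.41 (SD, n = 3). A second HK2 probe never cleared background.

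HK1, the hexokinase present in most tissues, differed much less. Its signal (chr10:71161158-71161217, plus strand) was 3.29, 2.78 and 2.79 in WT, 3.36, 2.87 and 2.88 in F53S, and 3.26, 3.05 and 3.08 in K57N cells. On slide 2 both K57N arrays were above all WT and F53S arrays, but on slide 1 K57N was the lowest of the 3. The K57N minus WT difference was 0.17 (SE 0.21, adjusted p = 0.901, or 0.239 with slide in the fit, range over settings 0.0288 to 1). Without K57N replicate 1 it was 0.27 with an adjusted p of 0.0228 in the fit with slide, the only array whose removal brought a call for HK1.

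PFKFB3 makes fructose bisphosphate of the regulatory kind, the strongest allosteric activator of phosphofructokinase, with little of the opposing phosphatase activity. Its representative probe (chr10:6277062-6277121, plus strand) gave -0.08, -0.10 and 0.00 in WT, -0.18, -0.06 and -0.02 in F53S, and 0.96, 0.35 and 0.49 in K57N cells. WT and F53S arrays lay within a narrow band and every K57N array was above it. Means were -0.06 ± 0.06, -0.09 ± 0.08 and 0.60 ± 0.32 (SD, n = 3). A second, dim probe upstream in the transcript did not clear background on slide 1 in WT or F53S cells, so only its slide 2 differences are given: 0.01 for K57N minus WT (limma adjusted p = 0.992 on slide 2 alone) and 0.08 for K57N minus F53S (0.896), where the representative probe had 0.47 and 0.46.

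PFKFB4, a related bifunctional enzyme, had the opposite sign. Its signal (chr3:48555454-48555513, minus strand) was -1.06, -1.66 and -1.92 in WT, -0.85, -1.81 and -1.84 in F53S, and -1.83, -2.08 and -2.03 in K57N cells. Within each slide the K57N arrays were the lowest, whereas over both slides K57N replicate 1 overlapped the other lines. The K57N minus WT difference was -0.44 (SE 0.32, adjusted p = 0.714, or SE 0.16 and 0.0978 with slide in the fit, range over settings 0.0978 to 1), and did not pass. Over these settings the PFKFB4 difference ranged from -0.62 to -0.19. Leaving out 1 array in the fit with slide gave -0.52 to -0.23. PFKP, the platelet type of phosphofructokinase itself, had signals (chr10:3178781-3178840, plus strand) of 4.71, 4.48 and 4.46 in WT, 5.02, 4.42 and 4.51 in F53S, and 4.91, 4.61 and 4.67 in K57N cells. Its lines overlapped, and the K57N minus WT difference was 0.18 (SE 0.20, adjusted p = 0.875, or 0.238 with slide in the fit, range over settings 0.130 to 1), with 0.23 at a second probe.

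The enolases and LDHA act late in glycolysis and showed small differences. ENO1, the widespread enolase, had signals (chr1:8924054-8924113, minus strand) of 7.06, 6.45 and 6.44 in WT, 7.40, 6.52 and 6.49 in F53S, and 6.86, 6.58 and 6.63 in K57N cells. K57N was the lowest line on slide 1 and the highest on slide 2, and the difference over all arrays was 0.04 (SE 0.29, adjusted p = 0.990). ENO2, the neuronal enolase, had signals (chr12:7032482-7032541, plus strand) of 0.62, 0.07 and 0.12 in WT, 0.55, 0.03 and 0.09 in F53S, and 0.74, 0.25 and 0.25 in K57N cells, with K57N highest on each slide and a difference from WT of 0.14 (SE 0.24, adjusted p = 0.958). LDHA, the subunit that favors lactate formation, had signals (chr11:18428789-18428848, plus strand) of 6.08, 6.36 and 6.25 in WT, 6.22, 6.21 and 6.32 in F53S, and 6.28, 6.38 and 6.50 in K57N cells. Its 3 lines overlapped and the difference from WT was 0.16 (SE 0.15, adjusted p = 0.822). A second LDHA probe, which the annotation places on chromosome 9 and which may read a copy, gave 0.22. At the representative probes no ENO1, ENO2 or LDHA difference passed with slide in the fit either, where the lowest of the adjusted p-values was 0.242, and the second LDHA probe had 0.138. Over settings the adjusted p at the representative probes ranged from 0.110 to 1 for ENO1, 0.138 to 1 for ENO2 and 0.258 to 1 for LDHA.

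The K57N minus WT differences were larger on slide 1 than on slide 2 for the 3 genes that stood apart. For SLC2A3 the log2 difference was 2.29 on slide 1 and 0.66 on slide 2. For HK2 it was 1.76 and 0.58, and for PFKFB3 1.05 and 0.47. PFKFB4 had -0.77 and -0.27. Over all genes tested, the SD of this difference was also larger on slide 1, at 0.745 against 0.535. Slide 1 held 1 array per line, so its differences have no test of their own, and the size of the gap between slides was not tested.

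**Figure D2:**
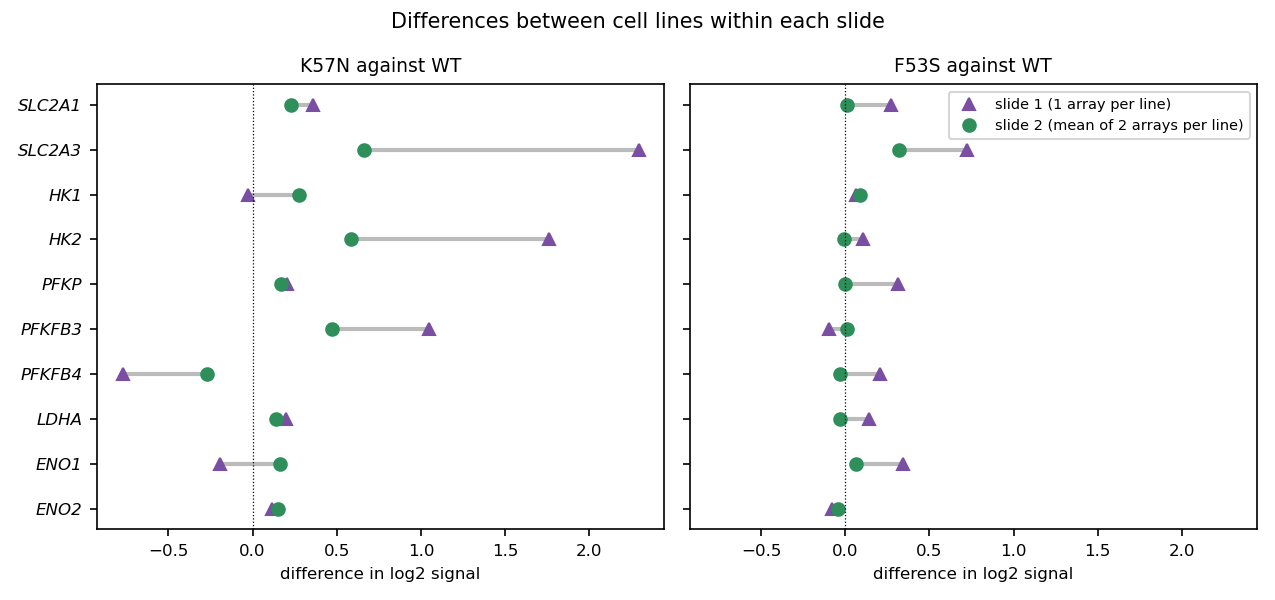
Difference in log2 signal between cell lines within each slide, for K57N against WT and F53S against WT. Triangles are slide 1 (1 array per line) and circles slide 2 (mean of 2 arrays per line); SLC2A3, HK2 and PFKFB3 lie to the right of 0 on both slides in K57N against WT, PFKFB4 to the left, and HK1 and ENO1 on opposite sides of 0.

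In the comparison of K57N with WT cells, which asks how the lines with the cancer substitution and the normal kinase differ, limma called 0 of the 10 genes at an adjusted p below 0.05 with cell line alone, where 2.75% of the 19209 genes tested were called. At an unadjusted p below 0.05 there were 3 of 10 (SLC2A3, HK2 and PFKFB3), beside 13.2% of all genes. The methods' t-test gave 0 after adjustment and the same 3 genes unadjusted. With slide in the fit 3 of 10 were called, beside 19.4% of all genes, and all 3 were higher in K57N cells, beside 8.58% of all genes called higher. Adding slide lowered the median SE over genes from 0.291 to 0.134. The arrays of these 3 did not overlap those of WT cells over both slides, as was so for 10.2% of all genes in this direction. Within each slide every K57N array was above every WT array for 7 of 10 (SLC2A1, SLC2A3, HK2, PFKP, PFKFB3, LDHA and ENO2), beside 20.8% of all genes.

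SLC2A3 differed by 1.20 on the log2 scale (SE 0.33, adjusted p = 0.126 with cell line alone; SE 0.30, adjusted p = 0.0308 with slide), higher in K57N cells in 3 of 3 replicates. HK2 differed by 0.98 (SE 0.26, adjusted p = 0.111; SE 0.25, adjusted p = 0.0317 with slide), and PFKFB3 by 0.66 (SE 0.19, adjusted p = 0.130; SE 0.15, adjusted p = 0.0213 with slide), each also in 3 of 3 replicates. With replicate number as the block, adjusted p was 0.0523 for SLC2A3, 0.0503 for HK2 and 0.0375 for PFKFB3. Over 23 alternative settings the adjusted p of limma or the methods' t-test ranged from 0.0105 to 0.415 for SLC2A3, from 0.0317 to 0.416 for HK2 and from 0.0185 to 0.576 for PFKFB3, with a difference above 0 in every one.

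The calls with slide in the fit rested on few arrays. Without WT replicate 1, none of the 3 was called: SLC2A3 was at 0.87 (adjusted p = 0.124), HK2 at 0.76 (0.141) and PFKFB3 at 0.58 (0.101). Without WT replicate 2, HK2 (0.0632) and PFKFB3 (0.0643) were not called, and without WT replicate 3, SLC2A3 (0.0703) and HK2 (0.0693) were not. Leaving out F53S replicate 2, which enters through the shared spread, gave 0.0531 for SLC2A3 and 0.0540 for HK2. Without K57N replicate 1 the differences were smaller, 0.73 for SLC2A3, 0.60 for HK2 and 0.45 for PFKFB3, and all 3 were called, at adjusted p-values of 0.0105, 0.0210 and 0.0118. Leaving out any of the other 4 arrays kept all 3 calls.

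**Figure D3:**
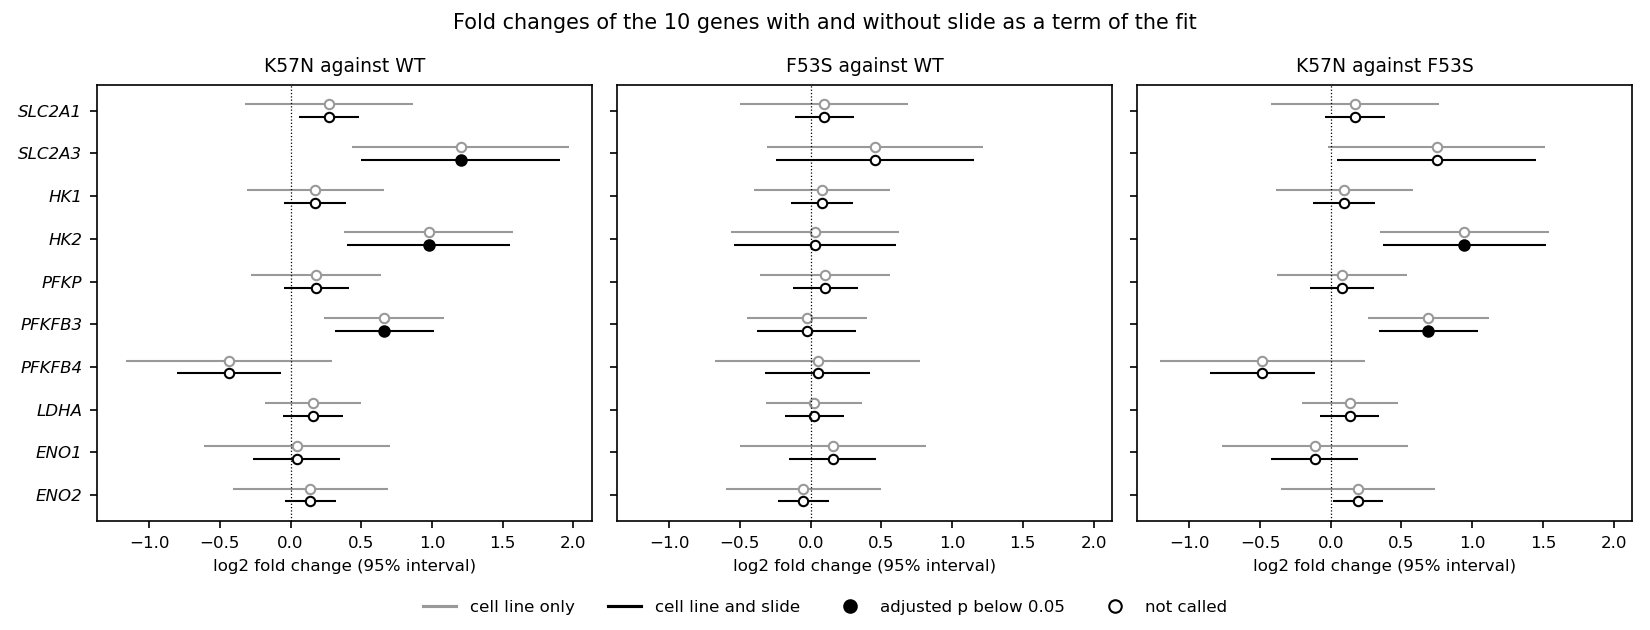
Log2 fold changes of the 10 genes with 95% intervals in the 3 comparisons, from limma with cell line alone (gray) and with slide as a further term (black). Filled points have an adjusted p below 0.05; they are SLC2A3, HK2 and PFKFB3 in K57N against WT and HK2 and PFKFB3 in K57N against F53S, all from the fit with slide.

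Comparing F53S with WT cells asks the same of the RASopathy substitution. Limma called 0 of the 10 genes with cell line alone, beside 0% of all genes, and 0 at an unadjusted p below 0.05, beside 0.89% of all genes; with slide in the fit it also called 0, beside 0% of all genes. The methods' t-test gave 0 with and without adjustment. The largest difference was that of SLC2A3, 0.46 (SE 0.33, 95% interval -0.31 to 1.22), with 0.72 on slide 1 and 0.32 on slide 2. Leaving out 1 array in the fit with slide gave 0.12 (without WT replicate 1) to 0.63 (without WT replicate 2). For HK2 the difference was 0.03 (95% interval -0.56 to 0.63) and for PFKFB3 -0.03 (-0.45 to 0.40). The other 7 genes differed by between -0.05 (ENO2) and 0.16 (ENO1). A p that missed the threshold does not show that values did not differ.

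Comparing K57N with F53S cells sets the 2 substitutions against each other. The 3 comparisons share arrays, this one the K57N arrays with the first, so its values are given beside those and not as a further test of them. With cell line alone limma called 0 of 10, beside 1.41% of all genes, and 2 at an unadjusted p below 0.05 (HK2 and PFKFB3), beside 10.4%; the methods' t-test gave 0 adjusted and the same 2 unadjusted. With slide in the fit 2 of 10 were called, beside 13.4% of all genes, both higher in K57N cells, beside 5.83%. HK2 differed by 0.95 (SE 0.25, adjusted p = 0.0461) and PFKFB3 by 0.69 (SE 0.15, adjusted p = 0.0261), and with replicate number as the block these were 0.0714 and 0.0460. SLC2A3 differed by 0.75 (SE 0.30, adjusted p = 0.143, range over settings 0.0649 to 1) and was not called. Without K57N replicate 1 it was at 0.27. K57N arrays were above all F53S arrays over both slides for SLC2A3, HK2 and PFKFB3, 3 of 10 beside 8.27% of all genes, and within each slide for 6 of 10 (these and SLC2A1, LDHA and ENO2), beside 18.3%. The PFKFB4 difference was -0.48 (SE 0.16, adjusted p = 0.0875 with slide, range 0.0875 to 1).

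Both calls against F53S cells depended on single arrays. Neither was made without WT replicate 2 (adjusted p = 0.0721 for HK2 and 0.0502 for PFKFB3), F53S replicate 1 (0.175 and 0.0997), F53S replicate 2 (0.123 and 0.0679), F53S replicate 3 (0.0617 and 0.0593) or K57N replicate 3 (0.0653 and 0.0534). Without WT replicate 3 or K57N replicate 2, PFKFB3 was called (0.0446 and 0.0330) and HK2 was not (0.0717 and 0.0571). Without K57N replicate 1 both were called, with HK2 at 0.57 (0.0335) and PFKFB3 at 0.48 (0.0142). Over settings the adjusted p ranged from 0.0461 to 0.640 for HK2 and from 0.0261 to 0.711 for PFKFB3.

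Across the 10 genes the median log2 difference between K57N and WT cells was 0.18, where the median of all genes tested was -0.06, and 9 of 10 had a higher mean in K57N cells, as did 42.9% of all genes. In F53S against WT cells 8 of 10 had a higher mean (54.2% of all genes), and in K57N against F53S cells 8 of 10 (42.1%). In F53S against WT cells the medians were 0.06 and 0.01, and in K57N against F53S cells 0.15 and -0.07. The direction in K57N against WT cells was the same over all 23 settings for 8 of the genes. ENO1 ranged from -0.06 to 0.25 and ENO2 from -0.02 to 0.32, so neither had a settled direction. The 10 genes were picked with earlier results of these data known, so these shares describe them and are not a test. Of other glycolytic enzymes, 4 of 15 had a higher mean in K57N than in WT cells and 11 a lower one. Of other transporters and hexokinases, 7 of 11 had a higher mean there.

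Profiles were compared after each gene was centered within each slide, as the root mean square of the log2 difference over the 9 arrays. HK2 lay closest to PFKFB3 among members (0.199), and SLC2A3 closest to HK2 (0.212). SLC2A1, PFKP and LDHA had nearly the same shallow profile, with 0.054 between SLC2A1 and PFKP and 0.055 between PFKP and LDHA. Among 19151 genes, those nearest to PFKFB3, the member with the smallest adjusted p in K57N against WT cells with slide in the fit, were GADD45A (0.038), TAF4B (0.046), ACVR1 (0.058), ABHD3 (0.059) and GNL3 (0.060). In K57N against WT cells these 5 differed by 0.65, 0.63, 0.66, 0.67 and 0.67 on the log2 scale, beside 0.66 for PFKFB3. They were picked for this likeness on the same 9 arrays, so similar differences follow from the choice.

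RefSeq promoters (GRCh38.p14) matched 9 of the 10 genes (all but SLC2A3), each taken as the 250 bases before the most upstream start listed. The core letters of the hypoxia response element, ACGTG on 1 strand and CACGT on the other, occurred in 3 of these 9 and in 18.6% of 27305 promoters of that length. HK2 had 2 such stretches, ENO2 1 and LDHA 3, of which 2 were the palindromic E-box CACGTG, which holds the core on both strands and occurred in 6.46% of promoters. PFKFB3 had no ACGTG and 6 matches to the GC-box GGGCGG, read as CCGCCC on the opposite strand, which occurred in 7 of the 9 and in 42.2% of promoters. The AP-1 letters TGACTCA, read as TGAGTCA on the opposite strand, occurred in ENO2 and in 4.15% of promoters. The sequences of HK2 (chr2:74833877-74834126, plus strand) and PFKFB3 (chr10:6144671-6144920, plus strand), both high in K57N cells, are shown beside that of LDHA (chr11:18394313-18394562, plus strand), which has the most core matches and whose signal did not pass the test. They run 5′ to 3′ and end at the base before the start, with capitals marking ACGTG or CACGT and the E-box that joins them.
HK2: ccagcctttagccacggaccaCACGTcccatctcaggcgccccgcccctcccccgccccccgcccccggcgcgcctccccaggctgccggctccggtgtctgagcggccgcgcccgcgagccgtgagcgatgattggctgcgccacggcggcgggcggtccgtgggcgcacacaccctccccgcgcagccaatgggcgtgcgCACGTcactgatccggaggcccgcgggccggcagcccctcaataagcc
PFKFB3: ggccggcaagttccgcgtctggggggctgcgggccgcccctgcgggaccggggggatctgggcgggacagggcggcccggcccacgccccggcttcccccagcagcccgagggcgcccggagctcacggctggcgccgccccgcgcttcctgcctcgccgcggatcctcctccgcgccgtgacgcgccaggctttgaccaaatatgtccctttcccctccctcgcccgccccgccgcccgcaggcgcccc
LDHA: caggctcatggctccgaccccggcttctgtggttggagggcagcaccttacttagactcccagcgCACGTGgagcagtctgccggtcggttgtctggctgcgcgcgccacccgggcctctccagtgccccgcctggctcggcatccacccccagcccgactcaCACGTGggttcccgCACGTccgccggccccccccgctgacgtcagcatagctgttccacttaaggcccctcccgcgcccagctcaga
In HK2 the stretches begin 229 and 48 bases before the start, and in LDHA 185, 87 and 73 bases before it. A match describes letters in this window and is neither a site nor a cause, and its absence says only that these letters are not there. HK1 had 7 windows listed, PFKP 4, and HK2, PFKFB3 and LDHA 2 each, of which only the most upstream was read. Whether that start is the one of the transcript its probe reads was not tested.

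Genes around the 10 were described by 6 lists of related function. With cell line alone limma called 0 genes of every list in K57N against WT cells. Of the leading genes, other settings with cell line alone called NDRG1 (normexp, quantile and median scaling, the deposited log2 values, and without F53S replicate 1), SLC16A3 (quantile and median scaling, and without WT replicate 1 or F53S replicate 1) and SLC2A14 (without WT replicate 2). The numbers at an unadjusted p below 0.05, where all genes had 13.2%, were 1 of 11 other transporters and hexokinases, 2 of 15 other glycolytic enzymes, 2 of 17 genes of lactate and pyruvate fate, 1 of 11 of the pentose phosphate pathway and gluconeogenesis, 4 of 15 regulators and 4 of 11 other hypoxia-induced genes. The methods' t-test gave 0 in each after adjustment and 1, 2, 2, 0, 4 and 1 unadjusted. With slide in the fit, where 19.4% of all genes were called and 8.58% were higher, 1 transporter was higher, 3 enzymes were lower, and 2 genes of lactate and pyruvate fate were higher and 1 lower. The pentose phosphate list had 1 higher and 1 lower, the regulators 1 higher and 3 lower, and the hypoxia-induced genes 3 higher and 1 lower. Median log2 differences were 0.14, -0.21, 0.07, -0.08, -0.14 and 0.06 for the 6 lists in that order, against -0.06 for all genes. In the other 2 comparisons limma also called 0 of each list with cell line alone. At an unadjusted p below 0.05 there was 1 transporter in F53S against WT cells and 0 elsewhere (0.89% of all genes), with 0 by the methods' t-test. In K57N against F53S cells, where all genes had 10.4%, there were 0, 1, 1, 1, 1 and 4, and by the methods' t-test 0 adjusted and 0, 2, 1, 1, 3 and 2 unadjusted. The fit with slide called 13.4% of all genes there, and the lists in the same order had 0, 0, 1, 1, 1 and 2 genes higher and 0, 1, 1, 1, 1 and 1 lower in K57N than in F53S cells, and 0 in F53S against WT cells.

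Named from each list are the 3 genes with the smallest adjusted p in K57N against WT cells. SLC2A14, the neighboring paralog of SLC2A3 with which a probe could cross-react, led the transporters with signals of 1.37, 2.17 and 0.74 in WT, 2.18, 2.35 and 2.52 in F53S, and 3.35, 2.62 and 2.76 in K57N cells. The difference was 1.48 (SE 0.36, adjusted p = 0.0796; 0.0257 with slide, range over 21 settings 0.0257 to 0.314). SLC2A13, a myo-inositol transporter (0.30 on slide 2; on slide 1 not clear of background in every line), and HKDC1, a hexokinase-like protein (0.43, from 0.22 to 0.59), did not pass either test. The muscle enolase ENO3 was lower in K57N cells, with -0.23, -0.61 and -0.55 in WT, -0.53, -0.76 and -0.69 in F53S, and -1.02, -1.05 and -1.16 in K57N cells, a difference of -0.61 (SE 0.16, adjusted p = 0.108; 0.00453 with slide, range 0.00453 to 0.536). PFKFB2, another member of the PFKFB family, differed by -0.46 and passed with slide in the fit, and the muscle phosphoglycerate mutase PGAM2 differed by -1.14 and did not. The PGAM2 difference was -2.32 on slide 1 and -0.55 on slide 2.

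Among genes that handle pyruvate and lactate, the lactate exporter SLC16A3 (MCT4) had 0.99, 0.23 and 0.26 in WT, 1.16, 0.53 and 0.50 in F53S, and 1.79, 1.52 and 1.51 in K57N cells. It was higher in K57N than in WT cells by 1.11 (SE 0.27, adjusted p = 0.0819; 7.95e-04 with slide, range 7.95e-04 to 0.326), by 0.80 on slide 1 and 1.27 on slide 2. The pyruvate dehydrogenase phosphatase PDP1, which activates that complex, differed by 0.65, and PDK2, a kinase that inactivates it, by -0.58 (-0.99 on slide 1, -0.38 on slide 2, and as little as -0.21 over settings). Both passed with slide in the fit, PDK2 not with replicate number as the block. In the pentose phosphate list RPE, the epimerase of ribulose phosphate, differed by 0.45 (adjusted p = 0.343; 0.0114 with slide, range 0.0114 to 0.950), the gluconeogenic FBP1 by -0.47 (from -0.59 to -0.27 over settings, passing with slide and not with replicate number as the block) and the glucose phosphatase G6PC3 by -0.26 (from -0.41 to -0.02), which did not pass.

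TXNIP, an arrestin that restrains glucose uptake, led the regulators. Its signal was 1.15, 0.78 and 0.76 in WT, -0.29, 0.45 and 0.47 in F53S, and -1.79, -0.10 and -0.07 in K57N cells, so both mutant lines lay below every WT array, and F53S replicate 1 overlapped the K57N arrays. K57N cells were lower than WT cells by 2.94 on slide 1 and 0.86 on slide 2, a difference of -1.55 over both (SE 0.46, adjusted p = 0.151; 0.0243 with slide, range 0.00210 to 0.437). The hypoxia factor EPAS1 differed by 0.48 and its partner ARNT by -0.45, and both passed with slide in the fit, ARNT not with replicate number as the block. NDRG1, a hypoxia-induced gene, had 4.08, 3.36 and 3.30 in WT, 4.24, 3.41 and 3.48 in F53S, and 5.88, 4.84 and 4.87 in K57N cells, a difference of 1.61 (SE 0.37, adjusted p = 0.0656; 5.08e-05 with slide, range 5.08e-05 to 0.245). EGLN3, a prolyl hydroxylase, differed by -0.64 (from -0.80 to -0.34 over settings) and ANKRD37 by 0.95 (from 0.52 to 1.18), and both passed with slide in the fit. VEGFA, from the same list, was also called higher with slide in the fit and not with cell line alone. CA9, a widely used marker of hypoxia, did not clear background on any array.

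**Figure D4:**
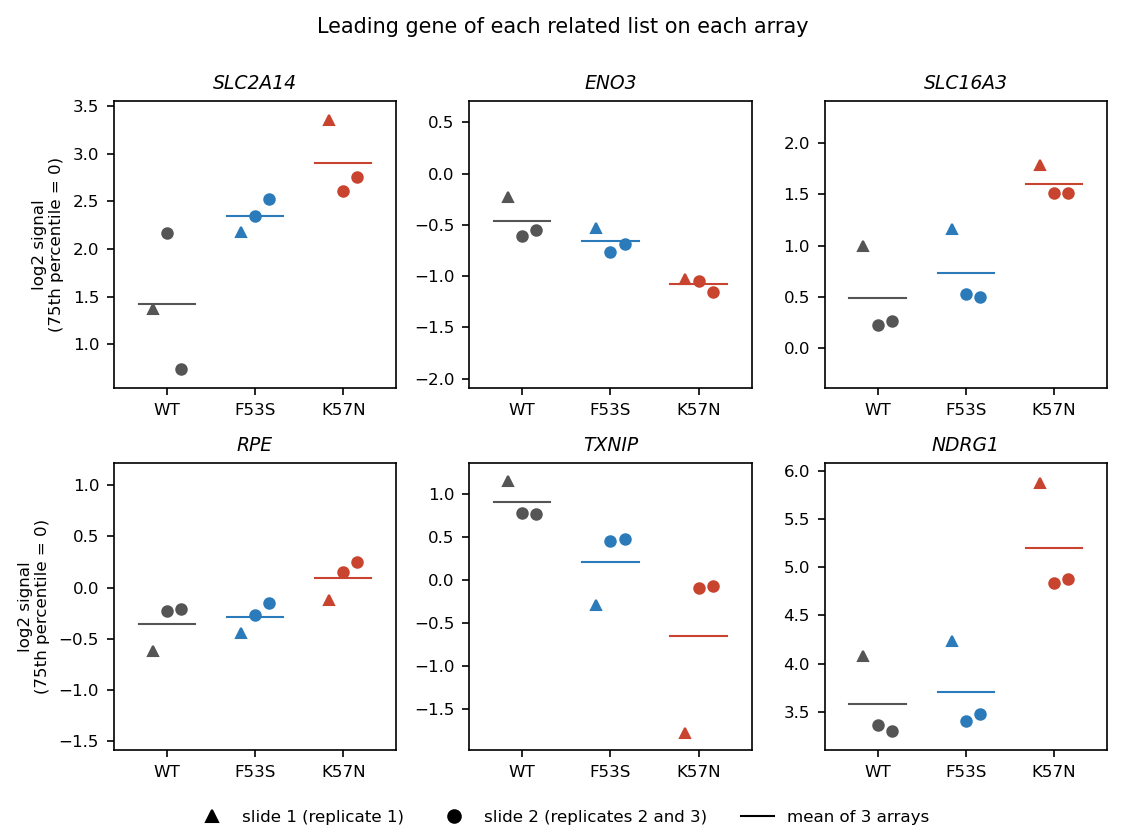
Log2 signal on each array of the gene with the smallest adjusted p in K57N against WT cells from each of the 6 related lists. Triangles are slide 1, circles slide 2 and lines the mean of 3 arrays; SLC2A14, SLC16A3, RPE and NDRG1 were higher and ENO3 and TXNIP lower on every K57N array than on every WT array.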

How the data were processed

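RNA of 9 HEK293 cultures was hybridized to 1-color Agilent human arrays. The authors deposited the processed intensity of Feature Extraction 10.10.1.1 for each array, background-subtracted and not scaled between arrays. Of 50598 probes, 28173 were named by RefSeq accession and the rest by the array's annotation (hg19). Outlier spots were left out, spots of a probe were averaged, log2 intensity was scaled to each array's 75th percentile, and 25397 probes were tested, those clear of background in all 3 replicates of 1 line or more, with limma 3.58.1 (R 4.3.3, data.table, version 1.17.8; Python 3.11.15, pandas 2.3.3, matplotlib 3.10.9), with Benjamini-Hochberg adjustment over all of them. The procedure was tested on simulated data. A gene was represented by its brightest probe. Genes named are the 10, the list genes called with cell line alone in any comparison (none) and the 3 others of each list with the smallest adjusted p, the genes checking the labels, and the 5 nearest in profile. Also named are CA9, VEGFA, cell type markers, and the genes called in F53S against WT cells under other settings. Some cell type markers are not reported here. The 10 genes and the lists were chosen with earlier results of these data known.

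The log2 table the authors deposited equaled log2 intensity less a constant per array within 0.02 for 99.4% to 99.6% of probes, so its scale and direction were clear while the basis of its centering stays unknown. Its medians were -3.41, -3.85 and -3.54 for WT replicates 1 to 3, -3.44, -3.76 and -3.56 for F53S, and -3.48, -3.64 and -3.65 for K57N. The replicate numbers paired the arrays: after line means were subtracted, pairs sharing a number had a correlation over genes (r) of 0.351 to 0.880. Replicate 1 of each line also shared slide 1, and the part of slide in these values was not tested. Alternatives were normexp background correction (offset 50), quantile and median scaling, no filter or one on all 9 arrays, averaging the probes of each gene, fits of 2 lines, replicate and slide as blocks, slide 2 alone, the log2 values as deposited, the t-test of the methods (adjusted or not), an added 2-fold limit, and leaving out each array, where a line with 2 arrays shares the spread of the others. Ranges of adjusted p over settings leave out the unadjusted t-test and the 2-fold limit.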

Additional observations from a re-analysis of the deposited data

Results flagged for a closer look

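2 results were flagged because the response of 1 mutant line, measured against the same WT cells, differed from that of the other. The test is the K57N against F53S comparison given above and not a further one. With slide in the fit it called 13.4% of all genes, and 5.83% as higher in K57N cells. HK2 was higher in K57N than in F53S cells by 0.95 on the log2 scale (SE 0.25, limma adjusted p = 0.0461) and PFKFB3 by 0.69 (SE 0.15, adjusted p = 0.0261). Neither difference passed with cell line alone, where the adjusted p-values were 0.187 and 0.176, and HK2 did not pass with replicate number as the block (0.0714; PFKFB3 0.0460) or on slide 2 alone (0.0534; PFKFB3 0.0261). In the fit with slide, both calls were lost without WT replicate 2 (0.0721 for HK2 and 0.0502 for PFKFB3), F53S replicate 1 (0.175 and 0.0997), F53S replicate 2 (0.123 and 0.0679), F53S replicate 3 (0.0617 and 0.0593) or K57N replicate 3 (0.0653 and 0.0534), and that of HK2 also without WT replicate 3 (0.0717) or K57N replicate 2 (0.0571). Without K57N replicate 1, HK2 differed by 0.57 and PFKFB3 by 0.48, and both were called. On slide 2 alone HK2 differed by 0.59. The second, dim PFKFB3 probe differed by 0.08 there, where the representative probe had 0.46. The cause of these 2 results was not tested.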

How the results depend on the processing

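With cell line alone, limma called 0 of the 10 genes in each comparison, and so did every change of background correction, scaling, filter, probe choice, groups fitted, source table or fold limit, the adjusted t-test, and leaving out each array (0 to 0). In K57N against WT cells the replicate block called 1 (PFKFB3), the slide block 3, slide 2 alone 4 (with HK1) and the unadjusted t-test 3. In K57N against F53S cells these were 1 (PFKFB3), 2, 1 (PFKFB3) and 2, and in F53S against WT cells 0 throughout. Of the named list genes called with the slide block, the replicate block did not call PDK2, FBP1 and ARNT. With slide in the fit, a series of alternatives chosen after seeing the data, leaving out 1 array gave 0 to 4 genes in K57N against WT cells, 0 to 2 in K57N against F53S cells and 0 to 0 in F53S against WT cells; quantile scaling added SLC2A1 (4 genes), and normexp and median scaling gave 3. The cause of these changes was not tested. No fold change that was called changed sign. Over all probes, 644 were called in K57N against WT cells and 331 in K57N against F53S cells with cell line alone, against 4805 and 3253 with the slide block, 3646 and 2144 with the replicate block, 5553 and 3721 on slide 2 alone, 300 and 102 with normexp, 395 and 183 with the filter on all 9 arrays, 417 and 154 with 2 lines fitted, 196 and 86 with no filter, 196 and 56 by the adjusted t-test and 3431 and 2592 unadjusted; leaving out an array gave 246 to 873 and 87 to 344. In F53S against WT cells 0 were called, against 1 with normexp (DUSP6), 1 with the slide block (ETV1), 2 on slide 2 alone (MMP1 and ETV4), up to 3 without WT replicate 1 (SPRY4, MMP1 and DUSP6, names chosen after their values were seen) and 369 by the unadjusted t-test. Of the genes called in K57N against F53S cells, 73.1% were higher in K57N cells, against 87.8% with normexp, 92.5% with no filter, 91.7% with 2 lines fitted, 43.7% with the slide block, 45.7% with the replicate block and 49.3% on slide 2 alone; in K57N against WT cells it was 62.6%, against 44.2% with the slide block. Signal over background limits the second probes of SLC2A1 and HK2, which gave no value, and the dim second probe of PFKFB3, which was not called in any comparison. With 1 array per line on slide 1, the larger differences there rest on single arrays.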

Other observations

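With slide in the fit, where 19.4% of all genes were called, 2 of the markers of other cell types named here were called and the others were not: in K57N against WT cells COL1A1 differed by -1.20 on the log2 scale (limma adjusted p = 0.00327) and VWF by -0.85 (0.00579), while the HEK293 markers KRT18 and NEFL differed by 0.72 (0.00594) and 0.50 (0.0193). With cell line alone their adjusted p-values were 0.0995, 0.166, 0.145 and 0.231. Of the 7 HEK293 markers tested, 5 had a higher and 2 a lower mean in K57N than in WT cells. Their differences ranged from -0.36 to 0.99, with a median of 0.07. Relative to F53S cells, 4 of these 7 had a higher and 3 a lower mean, with a median of 0.02. In K57N against F53S cells, where 13.4% of all genes were called with slide in the fit, COL1A1 differed by -0.98 (0.0109), VWF by -0.51 (0.0489) and KRT18 by 0.44 (0.0477), and NEFL (0.39, 0.0588) was not called. COL1A2, DCN and ALB did not clear background, and the part of these genes in the results for the 10 was not tested.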
